A study of Homo sapiens with 52 samples.

Results

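Neurite RNA was compared with soma RNA in untreated human i3Neurons, which the labels call WT and no-sgRNA. This is 8 of the 52 libraries of the series, taken by their titles, with 4 from the neurite fraction and 4 from the soma fraction, numbered 4 to 7 in each. i3Neurons are neurons that arise when doxycycline switches on a neurogenic transcription factor in WTC11, a line of induced pluripotent stem cells. They were replated on day 3 of induction onto inserts whose membrane has 1 µm pores, wide enough for neurites and too narrow for cell bodies, and harvested on day 17. The neurite fraction is what crossed the membrane, and the soma fraction holds the cell bodies with the neurites beside them. Both fractions come from the same cell line, carry no guide RNA and were made into libraries from 10 ng of total RNA with version 2 of a pico-input kit. The neurites against soma contrast was also measured in cells with a non-targeting guide RNA, in an hnRNPA1 experiment (6 neurite and 6 soma libraries) and a TDP43 experiment (5 and 5). Those libraries were made with version 3 of the kit, so kit and experiment cannot be told apart. The line is 1 donor's line, and the labels do not say whether the numbered samples are separate cultures, so p-values measure the spread between these samples, which may be technical.

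Neurites, the axons and dendrites of a neuron, hold part of the cell's messages and can translate them far from the nucleus. Messages for ribosomal proteins, translation factors and mitochondrial proteins are classic residents of axons. Nuclear RNAs such as small nuclear and nucleolar RNAs mark the cell body. Circular RNAs, made by back-splicing of exons, are stable and often abundant in neurons, and a count per gene adds them to the linear message of the same gene.

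Neurite libraries held 2541925 to 4346122 counts and soma libraries 5212152 to 10519656. The first principal component took 72% of the variance and separated the fractions, and the second (9.66%) set neurite sample 5 apart from the other 3 neurite samples. By chi-square per degree of freedom, lower for more similar libraries, neurite samples 4 and 5 (2.85) and 6 and 7 (3.11) formed close pairs. Other neurite pairs had 5.72 to 6.79. In soma the close pairs were 4 and 6 (2.74) and 5 and 7 (3.12), against 4.75 to 7.04. The tests treat the 4 libraries of a fraction as independent. In neurites the 10 most abundant genes took 11.5 to 14.9% of all counts, against 4.07 to 4.81% in soma. TMM scaling and plain library sizes differ here. The median log2 ratio of neurites over soma over all genes tested was −0.21 with TMM, which is used throughout, and −1.43 with library sizes. Levels are given as CPM, counts per 1000000 of the TMM-scaled library size.

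The soma libraries also carried more low-level signal over genes that neurons are not known to use. Over 389 olfactory receptor genes it came to 0.128 to 0.219 CPM per kb of exon in neurites and 0.596 to 1.2 CPM per kb in soma, here by plain library size. Between 4 and 55 of these genes had at least 5 counts in a neurite library, and between 309 and 356 in a soma library. On the TMM scale the levels were 0.273 CPM per kb in neurites and 0.588 in soma, a log2 ratio of −1.11, and 37 of the 66 olfactory receptor genes tested were called lower in neurites. Of the 5129 genes called lower in neurites, 2710 had a soma level per kb under 5 times that of the olfactory receptors. So had 1370 of the 5324 genes called higher. Among the 13746 coding genes tested, called or not, 3362 lay under 2 times that level and 3111 at 2 to 5 times. The part of this signal in the lower calls was not tested. Several lower genes named below lie under 5 times that level in soma. Among them are FOSL2 (2.56 times), SDHA (2.62), MATR3 (2.69), CEP63 (4.24) and MRPS5 (4.66).

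All 17 neuron markers were measured, and their summed level ran from 23650 to 29847 CPM in neurites and from 8579 to 10139 CPM in soma. The filament genes NEFM and NEFL gave most of the neurite sum, at means of 9377 and 8060 CPM. Of the 17 markers 9 were higher in neurites and 4 lower (median log2 ratio 0.41, −0.83 with library sizes). In a fit of genes at 5 times the olfactory receptor level or more, 5 were higher and 7 lower. Markers of other cell types were low in both fractions. The 15 neural progenitor markers summed to 248 to 286 CPM in neurites and 104 to 109 CPM in soma, of which the filament genes NES and VIM gave most. The 17 cycling cell markers summed to 112 to 127 CPM in neurites and 62 to 91.9 CPM in soma. The 15 astrocyte and oligodendrocyte markers (174 to 200 against 216 to 233 CPM), the 12 mesenchymal markers (65.9 to 87.8 against 87.7 to 103 CPM) and the 8 pluripotent markers (44.4 to 61.9 against 43 to 48.6 CPM) were low as well. POU5F1, SOX2 and SOX1, which define pluripotent and progenitor cells, did not pass the filter on low counts, and HES5 and TWIST1 had no counts in any neurite library. Other members passed it. Of 7 progenitor markers tested 3 were higher and 0 lower, and of 14 cycling markers 6 were higher and 2 lower. Of 5 pluripotent markers 1 was higher and 0 lower. Of 9 astrocyte and oligodendrocyte and 9 mesenchymal markers 0 were higher and 2 of each lower. Over all genes tested 28.7% were higher and 27.6% lower. The part of these cell types in the results was not tested. In bulk fractions more RNA per neurite and more neurites in the sample cannot be told apart, and neither can less RNA and fewer cell bodies.

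Higher messages included those of ribosomal proteins and many translation factors, which are known to begin with a pyrimidine tract that mTOR signalling reads. RefSeq start windows of 30 bases (GRCh38.p14, 15 bases before the annotated start and 15 from it on) are shown for genes the results turn on. Capitals mark a tract, a C followed by at least 4 more C or T, that begins within 5 bases of the start on the gene's strand.
RPL12, chr9:127451392-127451421, − strand: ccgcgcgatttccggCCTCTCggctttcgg
RPS24, chr10:78033848-78033877, + strand: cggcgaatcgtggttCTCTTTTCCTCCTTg
RPL36A, chrX:101390996-101391025, + strand: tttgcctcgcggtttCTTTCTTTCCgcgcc
EEF1A1, chr6:73521018-73521047, − strand: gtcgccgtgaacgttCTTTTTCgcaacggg
NACA, chr12:56725285-56725314, − strand: acgctctcgctcggtCTTTCTgccgccatc
TPT1, chr13:45341169-45341198, − strand: agcggctgagtcggCCTTTTCCgcccgctc
YBX1, chr1:42682403-42682432, + strand: cccgcctgtcccgccattctcgctagttcg
AKAP12, chr6:151239952-151239981, + strand: ctggaacaaatgtttggagttaaacacaat
SCN1A, chr2:166128006-166128035, − strand: tgatttgtattaggtaccatagagtgaggc

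A tract stood at the start of 51 of the 63 ribosomal protein genes with a promoter in the table (81%) and 18 of 39 translation factor genes (46.2%), against 5749 of all 27305 promoters (21.1%). Among coding genes called over 8-fold higher in neurites 79 of 207 had one (38.2%), and outside the ribosomal protein list 40 of 163 (24.5%). Of coding genes called higher at any size 24.6% had a tract, and of those called lower 21.2%. RPL12 and RPL36A both start with a tract and differ widely in ratio, as given further on, while YBX1 and AKAP12 show none in this window and are among the genes with high ratios. A match describes letters only, and the search read the annotated start, which may not be the start used in these cells.

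Of 18556 genes tested, 5324 were higher in neurites (28.7%) and 5129 were lower (27.6%), so that 56.3% were called (edgeR's quasi-likelihood test, Benjamini-Hochberg adjusted p under 0.05). With library sizes 2031 were higher and 14910 lower. The higher calls were the larger ones. Over 2-fold, 3214 genes were higher and 2338 lower, and over 8-fold 568 were higher and 27 lower. With a mean of at least 10 CPM over the 8 libraries, 451 genes were over 8-fold higher in neurites, and 4 were over 4-fold lower. Leaving out neurite sample 4, 5, 6 or 7 lowered the lower calls to 3238, 3580, 3586 and 3463. The higher calls were then 5467, 5592, 5474 and 5354, with 21432 to 21490 genes tested. Without soma sample 4, 5, 6 or 7 the lower calls were 5150, 4538, 5112 and 4883. With all 8 libraries, limma with voom called 3415 genes lower and DESeq2's Wald test 4146. With the sample number as a block 5491 were called lower.

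**Figure D1:**
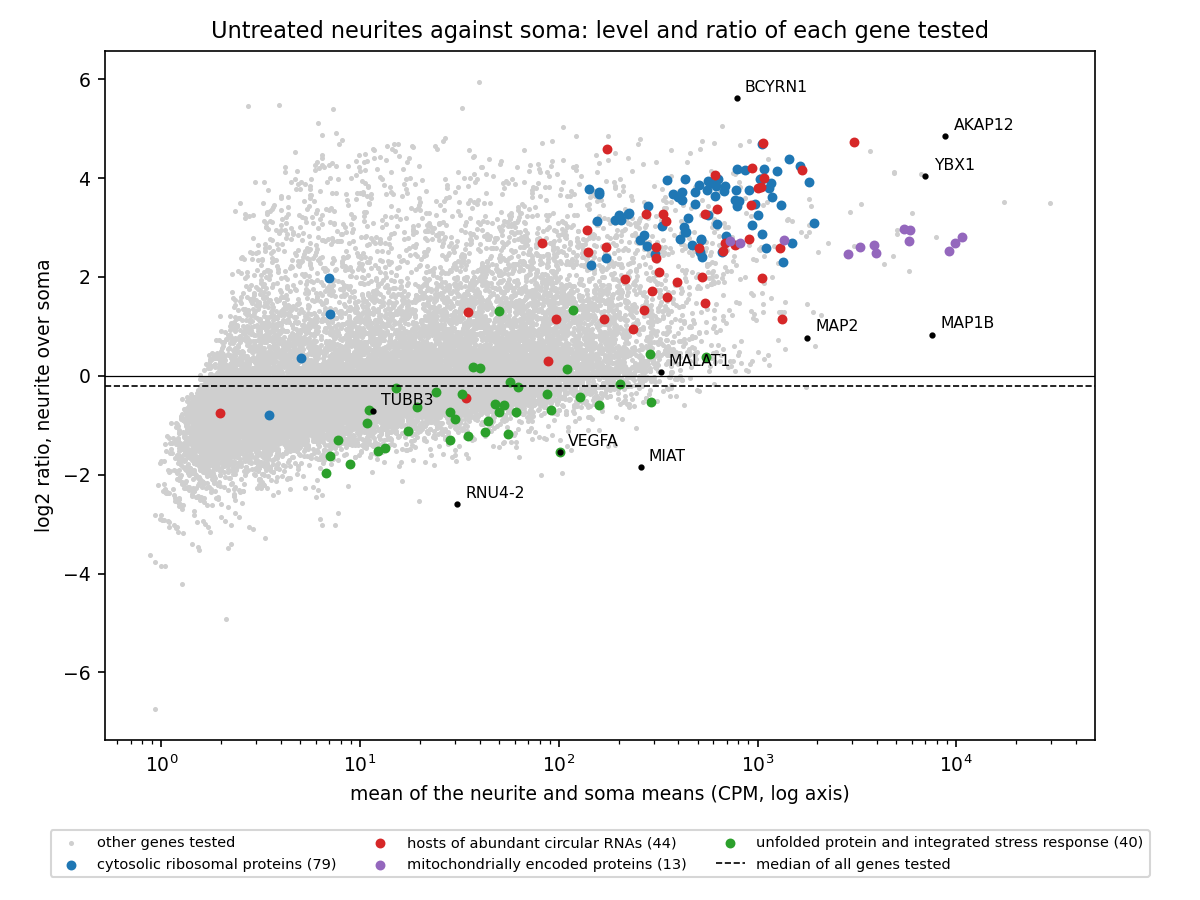
Each point is a gene tested in untreated neurites against soma, with the mean of both group means on the x axis (CPM, log axis) and the fitted log2 ratio of neurites over soma on the y axis. Ribosomal protein genes (blue), mitochondrially encoded genes (purple) and hosts of circular RNAs (red) lie mostly between 2 and 5 and to the right, stress response genes (green) mostly under 0, and the dashed line is the all-gene median of −0.21.

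Abundant coding messages were called higher in neurites more often than rare ones, with the soma level, which is also the denominator of the ratio, as the measure of abundance. Among coding genes whose soma level per kb was at least 100 times that of the olfactory receptors, 81% of 137 were called higher (median log2 ratio 0.84). At 10 to 30 times that level 47.8% of 3302 were called higher (median 0.22), and under 2 times it 8.72% of 3362 (median −0.58). That lowest group had a median soma level of 3.67 CPM, where counts are low. The olfactory receptor signal itself had a log2 ratio of −1.11, and its part in the values of that group was not tested. Short messages stood out. Of 222 coding genes with a longest transcript under 1000 bases 72.1% were called higher (median 1.56), against 26.6% of the 5180 at 2000 to 4000 bases (median −0.20) and 41.2% of the 345 at 12000 bases or more (median 0.12). Genes with a long span were the other end of the pattern. Of 770 genes over 300000 bases 50% were called higher (median 0.34), and of 3637 genes of 10000 to 30000 bases 20.3% (median −0.31). These medians are on the TMM scale and shift with the scaling as the all-gene median does, so only their order is read here.

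The coding gene with the largest ratio was AKAP12, a scaffold that holds protein kinase A and protein kinase C at the membrane and cytoskeleton (ENSG00000131016.17, chr6:151239999-151358557 on the + strand, GRCh38, GENCODE 29). It stood at 17617, 18594, 17147 and 14544 CPM in neurite samples 4 to 7, against 609, 526, 676 and 549 CPM in soma samples 4 to 7. The groups lay far apart, and the ratio of means was 28.8. The fitted log2 ratio was 4.85 ± 0.15 (SE, n = 4 each; adjusted p = 1.3e-17 in edgeR's quasi-likelihood test). Apart from mitochondrially encoded genes, AKAP12 was also the most abundant coding gene of the neurite fraction, at 16976 ± 1729 CPM (SD, n = 4), against 590 ± 67.3 CPM in soma. Its relative AKAP6, a scaffold of the nuclear envelope in muscle and neurons, had 7370, 7215, 7261 and 6463 CPM in neurites and 311, 294, 327 and 287 CPM in soma (log2 ratio 4.54 ± 0.13). All neurite libraries were thus high in both scaffolds. Of 18 protein kinase A subunits and anchoring proteins tested, 11 were higher and 1 lower (median 0.62, −0.61 with library sizes), with AKAP7 at 3.11 and the anchoring protein AKAP8L at −0.34.

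Next came genes of diverse products, each at least 23.6-fold higher in neurites. MAN1A2, a Golgi mannosidase that trims N-glycans, had 6979, 7168, 4622 and 4879 CPM in neurites and 220, 205, 226 and 248 CPM in soma (log2 4.72 ± 0.16). UBAP2, a ubiquitin-binding protein of RNA granules, averaged 2047 ± 261 CPM in neurites and 78.5 ± 7.92 CPM in soma (SD, n = 4 each; log2 4.70 ± 0.13). The exchange factor gene MCF2L2 averaged 1740 ± 126 and 64.7 ± 2.38 CPM in neurites and soma (log2 4.75). Close behind were SCLT1 and SDCCAG8, both centriole proteins (4.74 and 4.70), the transcriptional coactivator gene EYA1 (4.58), the chromatin protein gene CDYL (4.58), CCDC7 (4.56) and BBLN (4.59). BBLN is a low one, at 46.7 CPM in neurites and 2.05 CPM in soma, only 2.1 times the olfactory receptor level per kb in soma. In all 12 of these leading genes, RPL12 and AKAP6 included, every neurite library lay above every soma library, as the rule for naming them asked.

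Several of the leading genes are known hosts of abundant circular RNAs. On a list of 46 hosts, chosen with earlier results of these data known, 42 of 44 tested genes were higher and 1 was lower. Their median log2 ratio was 2.60 (1.35 with library sizes), 2.81 above that of all genes. They include MAN1A2, UBAP2 and CDYL, the active zone genes RIMS1 and RIMS2, the ubiquitin ligase gene FBXW7 (4.07), the kinase gene HIPK3 (3.80), the focal adhesion kinase gene PTK2 (3.46) and the postsynaptic scaffold HOMER1. FBXW7, HIPK3 and PTK2 were picked after their values were seen. HOMER1 had 590, 586, 456 and 497 CPM in neurites, against 93.9, 77.4, 91.5 and 86.1 CPM in soma (log2 2.60 ± 0.11). DLGAP1, a postsynaptic scaffold, was the lower one, at 29.2 CPM in neurites and 39.4 CPM in soma (−0.45), and lost its call without neurite sample 6 (−0.31, adjusted p = 0.086 in edgeR's quasi-likelihood test). LINC00632, the noncoding host of the circular RNA CDR1as, is not on the list and was picked after its values were seen. It had 16577, 14158, 9450 and 9967 CPM in neurites and 729, 698, 762 and 776 CPM in soma (log2 4.08 ± 0.18), more than any other long noncoding RNA in neurites. The listed hosts together took 2.88 ± 0.142% of neurite counts and 0.944 ± 0.0218% of soma counts (SD, n = 4 each). Gene counts do not separate circular from linear RNA, so which form gave the difference was not tested.

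**Figure D2:**
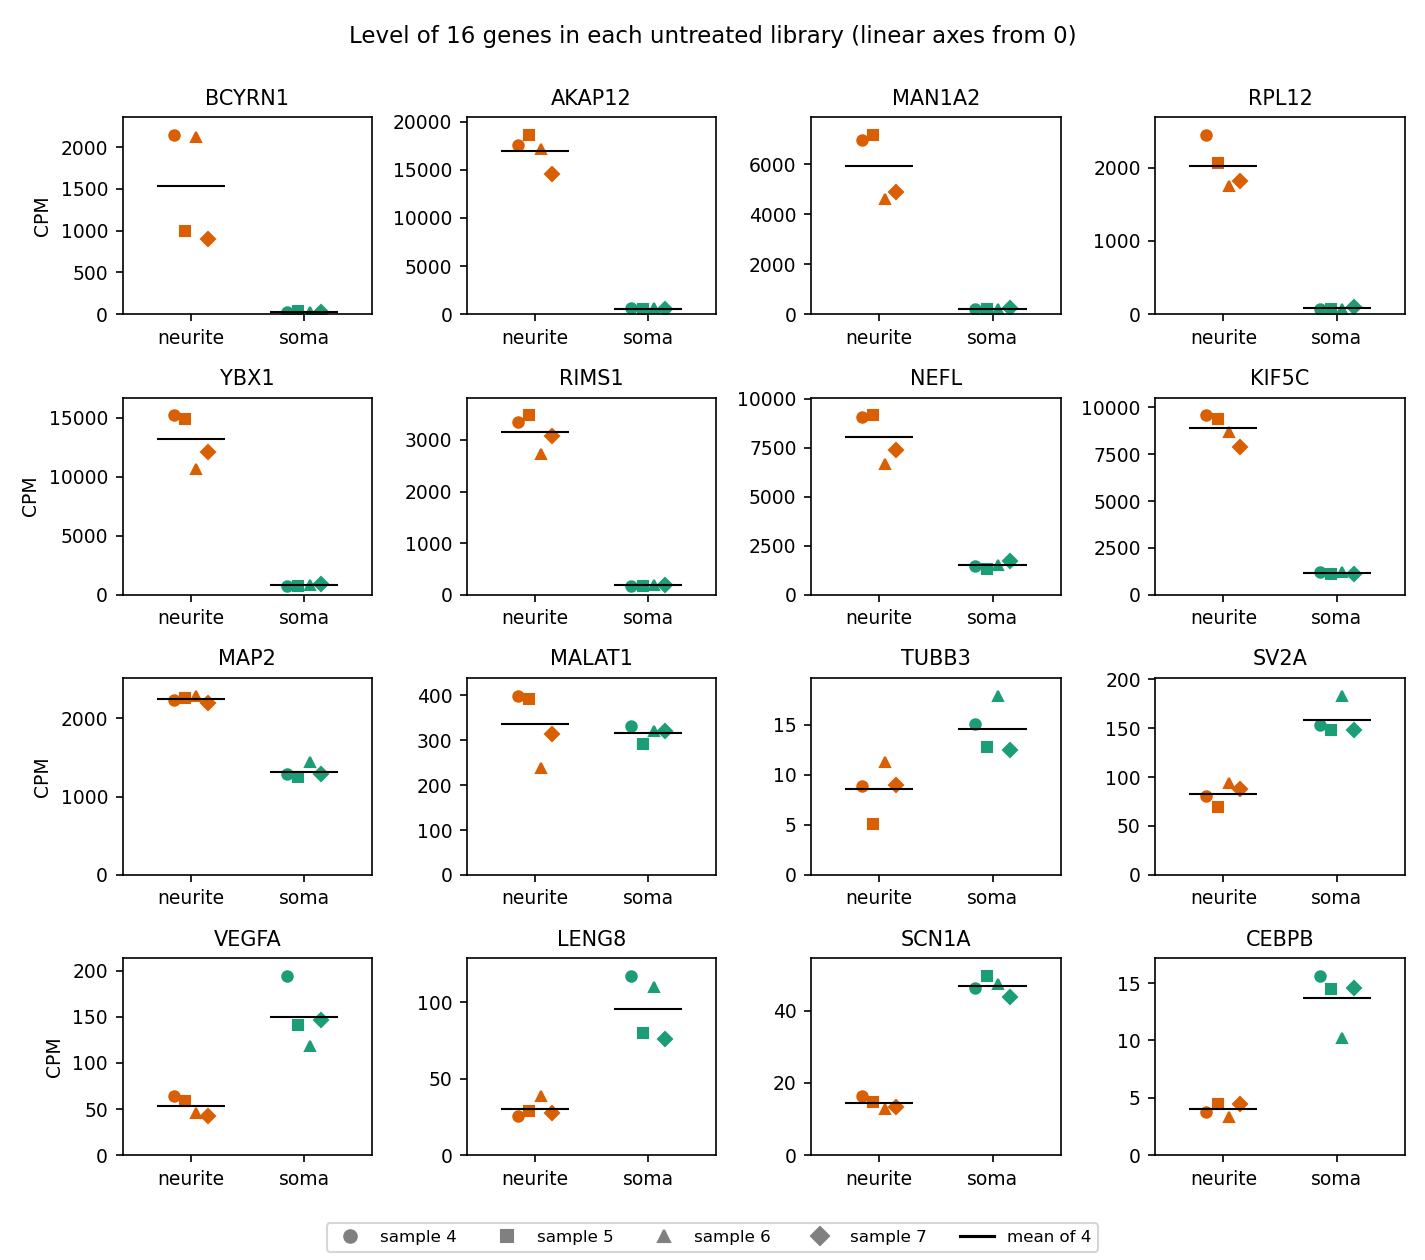
Levels of 16 genes in CPM (y axes, linear from 0) in the 4 neurite libraries (orange, left) and the 4 soma libraries (green, right), with marker shapes for samples 4 to 7 and lines at the mean of 4. AKAP12, MAN1A2, RPL12, YBX1 and RIMS1 are near the bottom in soma, MALAT1 overlaps between the fractions, and VEGFA, LENG8, SCN1A and CEBPB are lower in every neurite library.

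Ribosomal protein messages were higher almost without exception. Of 79 cytosolic ribosomal protein genes tested 77 were higher and none lower, with a median log2 ratio of 3.44 (2.20 with library sizes). Large subunit genes (46 of 47 higher, median 3.48) and small subunit genes (31 of 32, median 3.27) had similar medians. RPL12, a stalk-base protein of the large subunit, had 2442, 2064, 1751 and 1814 CPM in neurites and 74.5, 70, 70.6 and 98.6 CPM in soma (log2 4.69 ± 0.15). RPS2 followed at 2745 ± 513 CPM in neurites and 131 ± 14.9 CPM in soma (log2 4.39), and RPS24 at 3110 ± 579 and 164 ± 26.4 CPM (log2 4.24). The weakest called members were low in both fractions. RPL36A averaged 9.96 ± 4 CPM in neurites and 4.08 ± 0.758 CPM in soma (log2 1.25 ± 0.27; 0.03 with library sizes), and RPS10, which shares 39.4% of its exon bases with the readthrough gene RPS10-NUDT3, had a log2 ratio of 1.97. The other 2 were not called, RPL17 among them (0.36). Processed pseudogenes of these genes behaved alike, with RPL36AP37 at 5.05 (1280 CPM in neurites and 38.8 in soma), RPL12P4 at 5.03 and RPS24P19 at 4.85. The sources used here do not say how reads that fit several genes were shared out, so the split between a ribosomal protein gene and its pseudogenes is uncertain, in particular for RPL36A.

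Translation factors varied more. Of 48 tested 36 were higher and 6 lower (median 0.80, −0.44 with library sizes). Of elongation factors and nascent chain proteins 10 of 11 were higher, with a median of 2.50 (1.25 with library sizes). EEF1A1, which brings aminoacyl-tRNA to the ribosome, averaged 8898 ± 1369 CPM in neurites and 1225 ± 220 CPM in soma (log2 2.86 ± 0.15). NACA, which binds nascent chains, averaged 3361 ± 613 and 284 ± 33.9 CPM in neurites and soma (log2 3.57), and TPT1, the translationally controlled tumour protein, 1957 ± 447 and 178 ± 28.2 CPM (log2 3.46). Of 37 initiation factors 26 were higher and 5 lower (median 0.60, −0.63 with library sizes), and the difference between both groups was not tested. Among them EIF2B4 and EIF2B1, subunits of the exchange factor of eIF2, were lower (−0.70 and −0.57), as was EIF1AX (−0.52).

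YBX1, a protein that coats messages and governs their translation, was second to AKAP12 among nuclear-encoded coding genes in neurites. It had 15177, 14908, 10659 and 12067 CPM in neurites, against 767, 699, 842 and 899 CPM in soma (log2 4.04 ± 0.16, 16.5-fold). APC, which anchors messages at microtubule ends in axons, had 9533, 10200, 8928 and 8087 CPM in neurites and 523, 494, 627 and 497 CPM in soma (log2 4.10 ± 0.14). RNA granule and transport proteins as a list were mixed, 23 higher and 13 lower among 48 (median 0.14, and −1.10 under library sizes). A separate fit kept only the 11635 genes at 5 times the olfactory receptor level or more in either fraction, a setting added after seeing the data. Its scaling is estimated anew and shifted the log2 ratio of a gene by −0.32 in the median. Over all 11635 genes it called 4066 higher and 4571 lower. In that fit 16 of 46 genes of the list were higher and 21 lower, while the all-gene fit called 23 of the same 46 higher and 12 lower. LARP4 (2.72) and ATXN2 (974 ± 89.1 CPM in neurites, 178 ± 9.21 CPM in soma, 2.45) were at the top after APC. PURA, which binds purine-rich RNA in transport granules, was lower (44 ± 3.11 and 65.5 ± 6.44 CPM in neurites and soma, −0.58).

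Splicing factors held higher and lower members. Of 31 hnRNP and related genes 10 were higher and 8 lower (median −0.01), and of 24 SR proteins and their regulators 3 were higher and 13 lower (median −0.33, 0.12 below that of all genes). At 5 times the olfactory receptor level or more these counts were 6 and 15 of 30, and 2 and 18 of 23. HNRNPA1 had 1921, 1792, 1500 and 1773 CPM in neurites and 297, 268, 330 and 292 CPM in soma, which is 5.88-fold higher (log2 2.56 ± 0.11). With PCBP2 (2.60) and HNRNPM (1.88) it made up the 3 highest called members with a mean of at least 5 CPM, among 13 called higher in both groups. TARDBP, the gene of TDP-43, had 89.1, 101, 79.5 and 76.2 CPM in neurites and 116, 105, 122 and 105 CPM in soma (log2 −0.39 ± 0.10, adjusted p = 0.0031 in edgeR's quasi-likelihood test). It shares 29% of its exon bases with AL109811.4, and the sources used here do not say how such reads were counted. The groups of TARDBP do not overlap but nearly touch, and its call ended without neurite sample 6 or 7 (−0.25 in both cases, adjusted p = 0.082 and 0.099 in edgeR's quasi-likelihood test). SRRM3, which drives neuronal microexons, was lower (21 ± 4.58 and 48.2 ± 12.3 CPM in neurites and soma, −1.22). MATR3, a nuclear matrix protein, is listed under 2 identifiers, and the one named here shares 42.5% of its exon bases with the other and was lower (−1.55).

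Mitochondrial messages of both genomes were higher in neurites. All 13 genes for proteins encoded by mitochondrial DNA were higher, within a narrow band from 2.47 to 2.97 (median 2.69, 1.43 with library sizes). MT-ND4, a complex I subunit, had 23125, 22464, 15104 and 14196 CPM in neurites and 2587, 2415, 2828 and 2880 CPM in soma (log2 2.81 ± 0.17), with neurite samples 4 and 5 above 6 and 7. MT-ND1 was at 2.97 and MT-CO3 at 2.47. Of nuclear genes for the respiratory chain, 32 of 36 in complex I were higher (median 1.54, 0.31 with library sizes) and 22 of 25 in complexes II to IV (median 2.59), and all 18 ATP synthase genes tested (median 2.11). They were spread far wider than the mitochondrially encoded ones. COX6A1 of complex IV had 401, 397, 328 and 310 CPM in neurites and 21.9, 23.5, 23.4 and 33.3 CPM in soma (log2 3.83 ± 0.13), and ATP5ME of ATP synthase averaged 192 ± 24.5 and 14.2 ± 1.56 CPM in neurites and soma (log2 3.77). NDUFB10 was at 3.24, while NDUFS1 of the same complex I was at 0.52 (260 ± 18 and 181 ± 7.63 CPM in neurites and soma) and turned to −0.72 with library sizes. SDHA of complex II was lower (6.82 ± 1.31 and 12.9 ± 1.66 CPM, −0.92).

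Other mitochondrial and metabolic lists were less one-sided. Of 30 import and chaperone genes 23 were higher and 1 lower (median 0.77, −0.46 with library sizes), with the import pore gene TOMM7 at 3.62 (265 ± 31.6 CPM in neurites, 21.6 ± 3.17 CPM in soma). Of 72 mitochondrial ribosomal protein genes 37 were higher and 11 lower (median 0.59, −0.64 with library sizes). MRPS5 was among the 12 lowest called coding genes with a mean of at least 10 CPM and no overlap, at 5.69, 7.68, 4.64 and 5.7 CPM in neurites and 20.5, 18.9, 17.2 and 16.9 CPM in soma (log2 −1.69 ± 0.19). Of 18 TCA cycle genes 11 were higher and 2 lower (median 0.44, −0.80 with library sizes). Glycolysis genes split by enzyme (11 of 17 higher, 2 lower, median 0.54, −0.70 with library sizes). GAPDH averaged 3388 ± 536 CPM in neurites and 311 ± 36.1 CPM in soma (log2 3.44 ± 0.14). HK2, the hexokinase of the first step, averaged 32 ± 6.65 and 60.3 ± 9.11 CPM in neurites and soma (−0.94), and PGK1 179 ± 17.2 and 252 ± 34.8 CPM (−0.49).

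Iron storage and redox genes were among the highest. Of 20 tested 17 were higher and 1 lower (median 1.75, 0.53 with library sizes). FTL, the ferritin light chain, had 1275, 846, 1095 and 1205 CPM in neurites and 58.5, 55.6, 61.4 and 74.2 CPM in soma (log2 4.15 ± 0.14). FTH1, the heavy chain, averaged 659 ± 181 CPM in neurites and 42.2 ± 7.94 CPM in soma (log2 3.96), and its pseudogene FTH1P7 was at 5.42. Catalase (CAT) was the lower one (7.59 and 12.4 CPM in neurites and soma, −0.75). Among 33 proteasome genes 19 were higher and 4 lower (median 0.50, with library sizes −0.73), with the core subunit genes PSMB1 (2.44), PSMB7 (2.16) and PSMA7 (1.81) high and the regulatory particle genes PSMC2 (−0.41), PSMD6 (−0.38) and PSMD11 (−0.38) low.

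Cytoskeletal messages ranged from several-fold higher to lower in neurites. Among 7 neurofilament and related genes 6 were higher (median 1.94, 0.71 with library sizes). NEFL, the light neurofilament chain, had 9056, 9141, 6674 and 7370 CPM in neurites and 1443, 1328, 1533 and 1697 CPM in soma (log2 2.43 ± 0.14). NEFM averaged 9377 ± 1438 and 2174 ± 259 CPM in neurites and soma (log2 2.11 ± 0.14). INA, another neuronal filament protein, was at 0.41, and this turned to −0.83 with library sizes. Of 45 actin genes 26 were higher and 5 lower (median 0.56, −0.66 with library sizes), among them ACTB at 2028 ± 344 CPM in neurites and 723 ± 74.6 CPM in soma (log2 1.49) and the actin monomer buffer TMSB10 at 2917 ± 523 and 387 ± 79 CPM (log2 2.91). CAPZA2, which caps actin filaments, was lower (71.8 and 114 CPM in neurites and soma, −0.67).

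Of 44 tubulin and microtubule genes 29 were higher and 3 lower (median 0.45, −0.78 with library sizes). The most abundant was MAP1B, at 10137, 10388, 9684 and 8569 CPM in neurites and 5556, 5139, 5708 and 5472 CPM in soma (log2 0.83 ± 0.12), and this turned to −0.42 with library sizes. MAP2, a marker of dendrites, had 2237, 2259, 2285 and 2199 CPM in neurites and 1290, 1246, 1442 and 1288 CPM in soma (log2 0.77 ± 0.10; −0.47 with library sizes). MAPT (0.43), GAP43 (0.74) and STMN2 (1.45) were also higher with TMM, and with library sizes MAPT and GAP43 turned to −0.81 and −0.50 while STMN2 was not called (0.19). TUBB3, the neuronal tubulin, was called lower, at 8.85, 5.12, 11.3 and 8.96 CPM in neurites and 15.1, 12.8, 17.9 and 12.5 CPM in soma (log2 −0.71 ± 0.21). These levels are very low for a neuronal marker. TUBB3 shares 35.8% of its exon bases with the overlapping gene AC092143.1, and the sources used here do not say how such reads were counted. Its call ended without neurite sample 5 (−0.49, adjusted p = 0.058 in edgeR's quasi-likelihood test).

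Motor genes included some of the most enriched abundant messages. Of 21 kinesin genes 13 were higher and 1 lower, and of 30 dynein genes and adaptors 18 were higher and 4 lower (medians 0.41 and 0.46, −0.84 and −0.78 with library sizes). KIF5C, a motor that carries mitochondria and granules outward, had 9574, 9388, 8708 and 7908 CPM in neurites and 1182, 1105, 1205 and 1112 CPM in soma (log2 2.95 ± 0.13). KIF1A, the motor of synaptic vesicle precursors, averaged 6064 ± 935 and 544 ± 64.6 CPM in neurites and soma (log2 3.48). TRAK2, which links mitochondria to motors, averaged 1143 ± 105 and 111 ± 5.38 CPM (log2 3.37). DST, a cytoskeletal linker, averaged 10812 ± 892 and 1101 ± 193 CPM (log2 3.30). RHOT2, DYNLT3 and HOOK1 were lower (−1.0, −0.82 and −0.43). Among 24 centriole and centrosome genes 22 were higher and 2 lower (median 1.2, −0.03 with library sizes), with SPAG16 at 3.67 after SCLT1 and SDCCAG8. The 2 lower ones were CEP63 (−0.47) and CEP164 (−0.46), and the call of CEP63 ended without neurite sample 4 or 5 (adjusted p = 0.16 and 0.1 in edgeR's quasi-likelihood test).

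At the presynapse, active zone scaffolds and vesicle proteins were listed apart, and the difference between both lists was not tested. Of 16 active zone genes 11 were higher and 1 lower (median 1.4, 0.16 with library sizes). RIMS1, which organises release sites, had 3347, 3476, 2734 and 3078 CPM in neurites and 174, 161, 186 and 183 CPM in soma (log2 4.16 ± 0.13). The priming factor UNC13C (4.10) and RIMS2 (3.82) were close to it. Both RIMS genes are also on the list of circular RNA hosts. PCLO and PPFIA2 were higher by less (1.2 each). PPFIA4 was the lower one (31.3 ± 3.94 and 44 ± 9.75 CPM in neurites and soma, −0.46), and its call ended without neurite sample 4, 5 or 7 or soma sample 4 (adjusted p from 0.06 to 0.12 in edgeR's quasi-likelihood test). Of 47 vesicle and release genes 25 were higher and 7 lower (median 0.28, −0.97 with library sizes). SNCG, gamma-synuclein, averaged 728 ± 121 and 99.1 ± 13.5 CPM in neurites and soma (log2 2.88), and RAB3A 545 ± 74.9 and 143 ± 15 CPM (1.93). In the fit of genes at 5 times the olfactory receptor level or more, 15 of its 46 members were higher and 17 lower, while the all-gene fit called 25 of the same 46 higher and 6 lower. The vesicle protein SV2A was lower, at 80.3, 69.8, 94.4 and 88 CPM in neurites and 153, 148, 183 and 148 CPM in soma (−0.91 ± 0.11), as was the vesicular glutamate transporter SLC17A6, at 146 ± 7.07 and 268 ± 15.2 CPM (−0.88 ± 0.09). SYN1, a vesicle phosphoprotein, had 49.3 ± 8.25 CPM in neurites and 44.4 ± 4.52 CPM in soma and was not called (log2 0.15, adjusted p = 0.29 in edgeR's quasi-likelihood test).

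Postsynaptic genes, channels and adhesion molecules held higher and lower members, in proportions that turned with the setting. Of 49 postsynaptic genes 16 were higher (32.7%) and 14 lower (28.6%, median −0.02), near the 28.7% and 27.6% over all genes tested. In the fit at 5 times the olfactory receptor level or more 8 of 40 were higher and 19 lower, beside 4066 and 4571 of all 11635 genes. At the high end was the scaffold gene DLG1 at 2.81 (339 ± 26.9 CPM in neurites, 48.3 ± 1.09 CPM in soma). Its 3 lowest called members with a mean of at least 5 CPM were 2 receptors and a kinase. GRIA2, an AMPA receptor subunit, averaged 47.2 ± 9.96 and 104 ± 11.1 CPM in neurites and soma (−1.13 ± 0.12), the metabotropic receptor GRM5 6.36 ± 1.8 and 15.9 ± 1.59 CPM (−1.30), and the kinase CAMK2A 7.49 ± 1.9 and 14.9 ± 1.55 CPM (−1.03). GRM5 and CAMK2A lie at 3.13 and 4.13 times the olfactory receptor level in soma. Of 24 sodium and calcium channel genes 5 were higher and 10 lower (median −0.29), and of 27 potassium channel genes 8 were higher and 7 lower (median −0.05). At 5 times the olfactory receptor level or more these counts were 2 and 11 of 18, and 7 and 9 of 21. SCN1A, a sodium channel of the axon initial segment mutated in Dravet syndrome (ENSG00000144285.23, chr2:165984641-166149214 on the − strand), had 16.4, 14.7, 12.9 and 13.4 CPM in neurites and 46.2, 49.5, 47.2 and 44 CPM in soma (−1.72 ± 0.13), at 4.68 times the olfactory receptor level in soma. Its antisense partner SCN1A-AS1 was lower as well (10.6 and 36.5 CPM in neurites and soma, −1.81), and the sources used here do not say whether strand was used in counting. Among the higher channels KCNH7, a potassium channel, was the highest, at 431 ± 41 and 50.2 ± 5.98 CPM in neurites and soma (3.09), followed by HCN2 (1.53). Of 71 adhesion and guidance genes 28 were higher and 16 lower (median 0.03, −1.20 with library sizes; 18 and 27 of 59 at 5 times the olfactory receptor level or more), from PCDH11X (2.64) and FAT3 (1.97) to PCDH10 (102 ± 7.67 and 184 ± 14.6 CPM in neurites and soma, −0.84).

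Stress response messages were lower in neurites. The list covers the unfolded protein response and the integrated stress response, the cell's reply to misfolded proteins and amino acid shortage. Among its 40 tested genes 26 were lower and 4 higher (median −0.66, 0.45 below that of all genes). CEBPB, a transcription factor of this response, had 3.79, 4.48, 3.31 and 4.48 CPM in neurites and 15.6, 14.5, 10.2 and 14.6 CPM in soma (−1.79 ± 0.24). ASNS, asparagine synthetase, averaged 2.97 ± 1.55 and 10.5 ± 1.1 CPM in neurites and soma (−1.97 ± 0.28). ASNS shares 44.6% of its exon bases with AC079781.5 and lies at 4.03 times the olfactory receptor level in soma. The pseudokinase TRIB3 averaged 3.44 ± 0.686 and 10.7 ± 2.92 CPM (−1.63). VEGFA, which hypoxia and this response induce, is far above the low-level signal, with 64.5, 58.9, 45.4 and 42.8 CPM in neurites and 194, 141, 118 and 146 CPM in soma (−1.54 ± 0.15). Their regulators did not follow the list. ATF4 was higher (333 ± 23.1 and 244 ± 17.2 CPM in neurites and soma, 0.45 ± 0.09) and turned to −0.80 with library sizes, and the sensor ATF6 was higher (170 ± 11 and 66.9 ± 8.28 CPM, 1.34) and was not called with library sizes (0.10). With the olfactory receptor level subtracted, a setting added after seeing the data, the median of the list was −0.91. Medians of other lists moved down in that setting too, for ribosomal proteins from 3.44 to 3.13 and for vesicle genes from 0.28 to 0.03. The move is thus not particular to stress response genes.

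Immediate early genes, which activity switches on within minutes, were listed together with axon injury genes. Of the 16 tested genes of this list 10 were lower and 1 higher (median −0.63), the higher one being the neuropeptide gene GAL (2.34). FOS had 17.7, 6.4, 12.3 and 17.1 CPM in neurites and 25.4, 21.8, 22.1 and 18.4 CPM in soma (−0.70 ± 0.19), with neurite sample 5 lowest. Without that sample the value was −0.44 and stayed called, and without neurite sample 6 the call ended (−0.55, adjusted p = 0.052 in edgeR's quasi-likelihood test). FOSL2 averaged 4.38 ± 0.954 and 10.8 ± 3.08 CPM in neurites and soma (−1.33). Of 19 interferon-stimulated genes 8 were lower and 1 higher (median −0.66), but only 5 of the 19 lay above 5 times the olfactory receptor level in either fraction.

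The other lowest coding genes with at least 10 CPM were of mixed function. LENG8, a nuclear RNA-binding protein linked to export, had 25.9, 28.8, 38.4 and 27.7 CPM in neurites and 117, 79.6, 110 and 75.9 CPM in soma (−1.64 ± 0.16). OSGEP, an enzyme of tRNA modification, averaged 8.65 ± 1.65 and 28.1 ± 3.84 CPM in neurites and soma (−1.71), and KLHL14, a Kelch family protein, 13.8 ± 3.84 and 44.3 ± 7.16 CPM (−1.65). METTL17 (−1.65), TUBE1 (−1.59), DUSP11 (−1.58) and TMEM196 (−1.58) completed this end. GOLGA6L2, one of a family of near-identical golgin copies, had the lowest ratio (6.46 ± 2.81 and 25 ± 9.42 CPM in neurites and soma, −1.82 ± 0.41). Its pseudogene relatives GOLGA6L26, GOLGA6L24 and GOLGA6L25 were lower too (−1.17, −1.10 and −1.07), and the split among copies is uncertain.

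Of 124 small noncoding RNAs tested 43 were higher and 58 lower (median −0.41). The RNA with the largest ratio among small noncoding RNAs was BCYRN1, the cytoplasmic RNA BC200, which binds poly(A)-binding protein and represses translation at synapses. It had 2143, 994, 2121 and 894 CPM in neurites and 30.1, 36.6, 32.5 and 25.7 CPM in soma. It was 49-fold higher (log2 5.61 ± 0.39, adjusted p = 8e-06 in edgeR's quasi-likelihood test), although neurite samples 4 and 6 stood well above 5 and 7. BCYRN1 is related to Alu repeats, so reads of such copies may be counted with it. RN7SL1, the 7SL RNA of the signal recognition particle, had 11965, 9081, 17134 and 17295 CPM in neurites and 1528, 1863, 1601 and 2989 CPM in soma (log2 2.80 ± 0.25). RN7SL1 shares 100% of its exon bases with the overlapping gene AL139099.4, and the sources used here do not say how such reads were counted. The spliceosomal RNA RNU4-2 had 22.8, 10.2, 2.98 and 4.07 CPM in neurites and 48.2, 45.8, 44.1 and 69 CPM in soma (−2.59 ± 0.48). The nucleolar RNAs SNORA73B (−2.53) and SNORD17 (−2.12) were lower as well, while RNU6-656P, a copy of the spliceosomal U6 RNA, was higher (3.16).

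Of 2699 long noncoding RNAs tested 218 were higher and 1064 lower (median −0.74). Their median soma level was 3.7 CPM, and the part of the low-level soma signal in these calls was not tested. MIAT, a nuclear RNA of neurons, had 107, 136, 130 and 76.2 CPM in neurites and 460, 342, 512 and 304 CPM in soma (−1.85 ± 0.20), at 58.2 times the olfactory receptor level in soma. MALAT1, the RNA of nuclear speckles, did not follow it. It had 399, 393, 238 and 314 CPM in neurites and 332, 291, 320 and 320 CPM in soma, and the groups overlapped (log2 0.08 ± 0.13, adjusted p = 0.57 in edgeR's quasi-likelihood test). With library sizes MALAT1 was called lower (−1.17). Of 17 RNAs listed as nuclear-retained, 3 were higher and 7 lower (median −0.39, 0.18 below that of all genes). RMST was higher (545 ± 125 and 66.1 ± 14.2 CPM in neurites and soma, 3.03), and so was NORAD, which is cytoplasmic in part (0.44, −0.80 with library sizes). FIRRE, which anchors chromatin in the nucleus, was one of the highest long noncoding RNAs, at 1565 ± 217 and 62.2 ± 5.98 CPM in neurites and soma (4.66 ± 0.13). Among 14 host genes of small nucleolar RNAs 10 were higher and none lower (median 1.6, 0.36 with library sizes), with SNHG6 at 4.05 and GAS5 at 2.84.

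**Figure D3:**
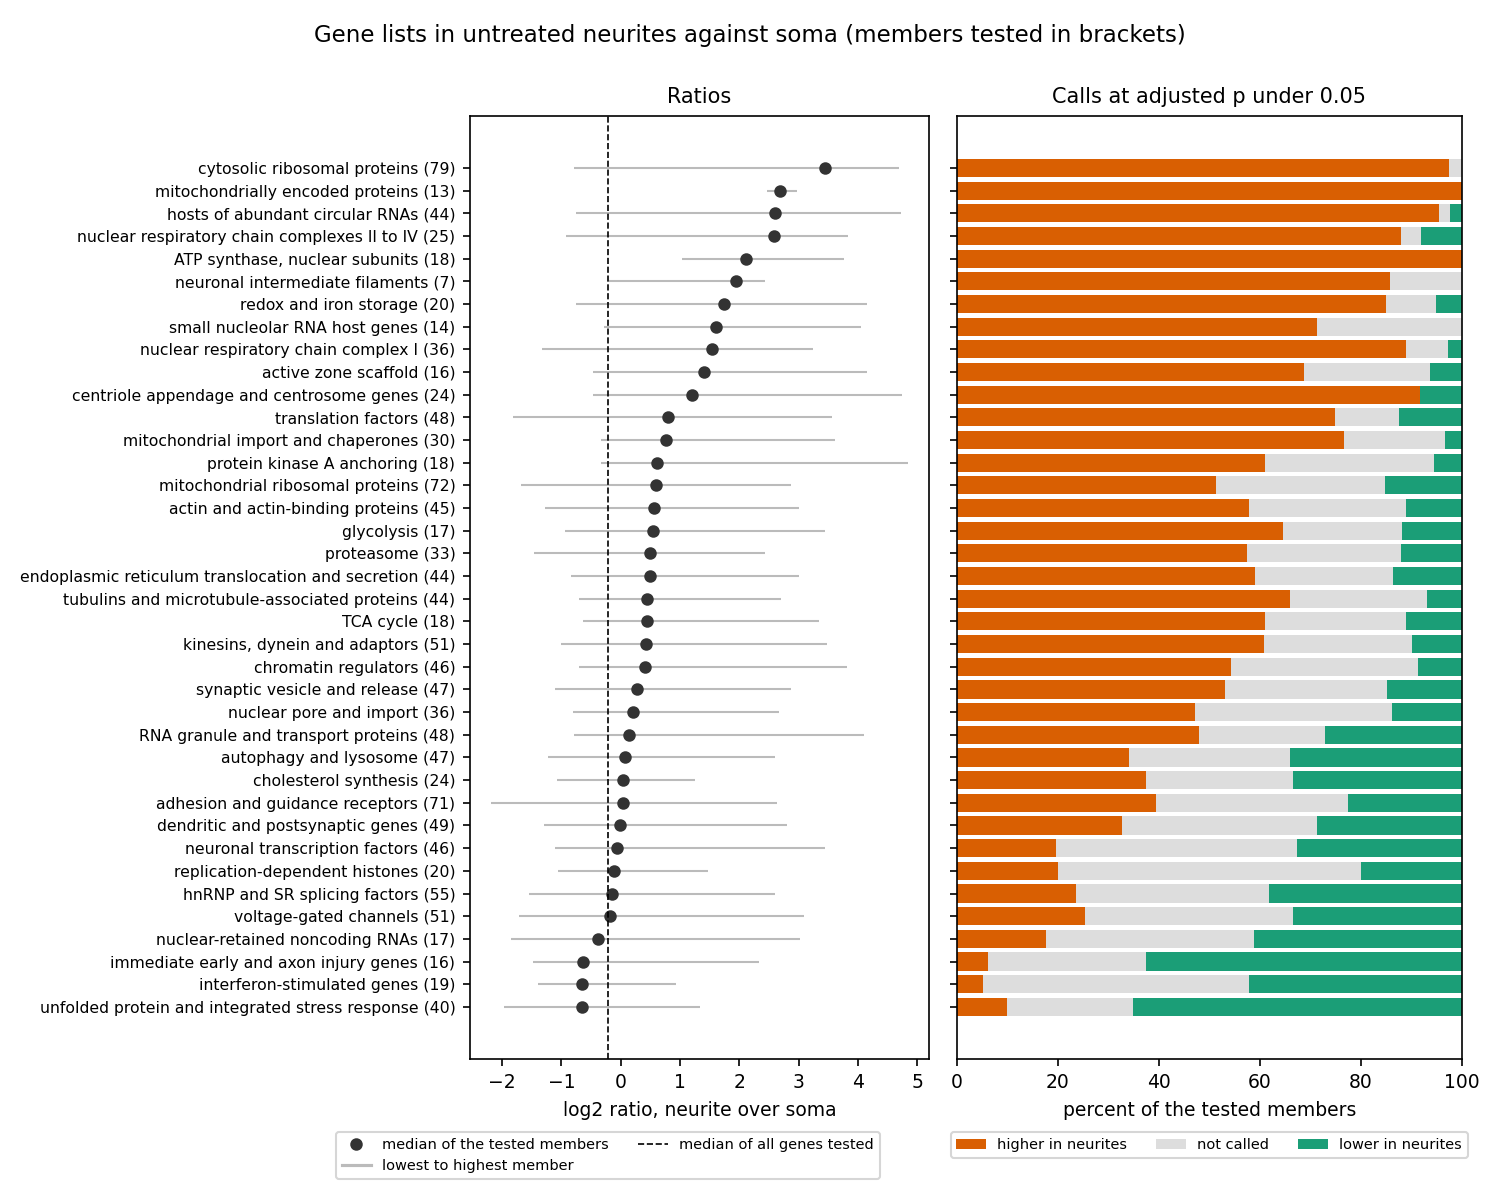
Gene lists (rows) in untreated neurites against soma. Left, the median log2 ratio of each list (dot) with its lowest and highest member (line) and the all-gene median (dashed); right, the percent of tested members called higher (orange), not called (grey) and lower (green). Ribosomal protein genes lead with a median of 3.44, and the stress response and interferon-stimulated lists are lowest, at −0.66 each.

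The remaining lists lay near the middle. Of 46 chromatin regulator genes 25 were higher and 4 lower (median 0.41, −0.82 with library sizes), with the DNA demethylases TET1 (1530 ± 152 CPM in neurites, 108 ± 5.27 CPM in soma, 3.82) and TET2 (2.83) and the methyltransferase EZH2 (2.97) at the top. Among 36 nuclear pore genes 17 were higher and 5 lower (median 0.20, and −1.03 under library sizes), and 12 and 13 of 35 at 5 times the olfactory receptor level or more. Genes of endoplasmic reticulum translocation were higher in 26 of 44 and lower in 6 (median 0.49, −0.75 with library sizes), led by the small subunit gene OST4 (3.00). Cholesterol synthesis genes split 9 to 8 of 24 (median 0.03, −1.20 with library sizes; 7 to 9 of 21 at 5 times the olfactory receptor level or more), with IDI1 at 37.1 ± 3.76 and 69.5 ± 4.06 CPM in neurites and soma (−0.91). Lysosome and autophagy genes split 16 to 16 of 47 (median 0.08, −1.15 with library sizes), with the proton pump subunit ATP6V1F at 110 ± 7.11 and 18.1 ± 2.36 CPM (2.61). Neuronal transcription factor genes were higher in 9 of 46 and lower in 15 (median −0.06), and replication-dependent histones in 4 and 4 of 20 (median −0.12). NEUROG2, the kind of factor used to make such neurons, was not called, at 11.3 ± 5.47 and 10.1 ± 1.54 CPM in neurites and soma. In all, the medians of 34 of 38 lists lay above that of all genes, so a median above it is common among these lists. Of the 29 lists with more higher than lower members, 6 had more lower than higher ones at 5 times the olfactory receptor level or more. The balance of all genes turned as well. Of the 11635 genes of that fit 4066 were higher and 4571 lower, against 5324 and 5129 of 18556 in the all-gene fit.

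Shares of all counts, which need no scaling factor, gave the composition of each fraction. Mitochondrial rRNA took 5.49 ± 1.2% of neurite counts and 1.1 ± 0.205% of soma counts (SD, n = 4 each). Ribosomal protein messages took 5.9 ± 0.38% in neurites and 1.31 ± 0.177% in soma. The nuclear-encoded respiratory chain took 1.07 ± 0.0238 and 0.555 ± 0.0505% in neurites and soma, and the 3 7SL genes 0.921 ± 0.325 and 0.302 ± 0.104%. Other shares ran the other way. Long noncoding RNAs took 3.13 ± 0.111% in neurites and 4.99 ± 0.553% in soma, and the stress response list 0.183 ± 0.00739 and 0.482 ± 0.0529%. Tubulin and microtubule genes took 1.89 ± 0.0896% in neurites and 2.65 ± 0.11% in soma, and vesicle genes 0.754 ± 0.0525 and 1.2 ± 0.0394%, although the median member of both lists was higher in neurites on the TMM scale. Actin genes took 1.27 ± 0.0474 and 1.2 ± 0.0385%, with overlapping groups (exact permutation p = 0.257). In the other 15 of 16 shares the fractions did not overlap, and the 2-sided exact permutation test gave p = 0.0286, the smallest that 4 against 4 libraries allow (adjusted p = 0.0305 over the 16).

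**Figure D4:**
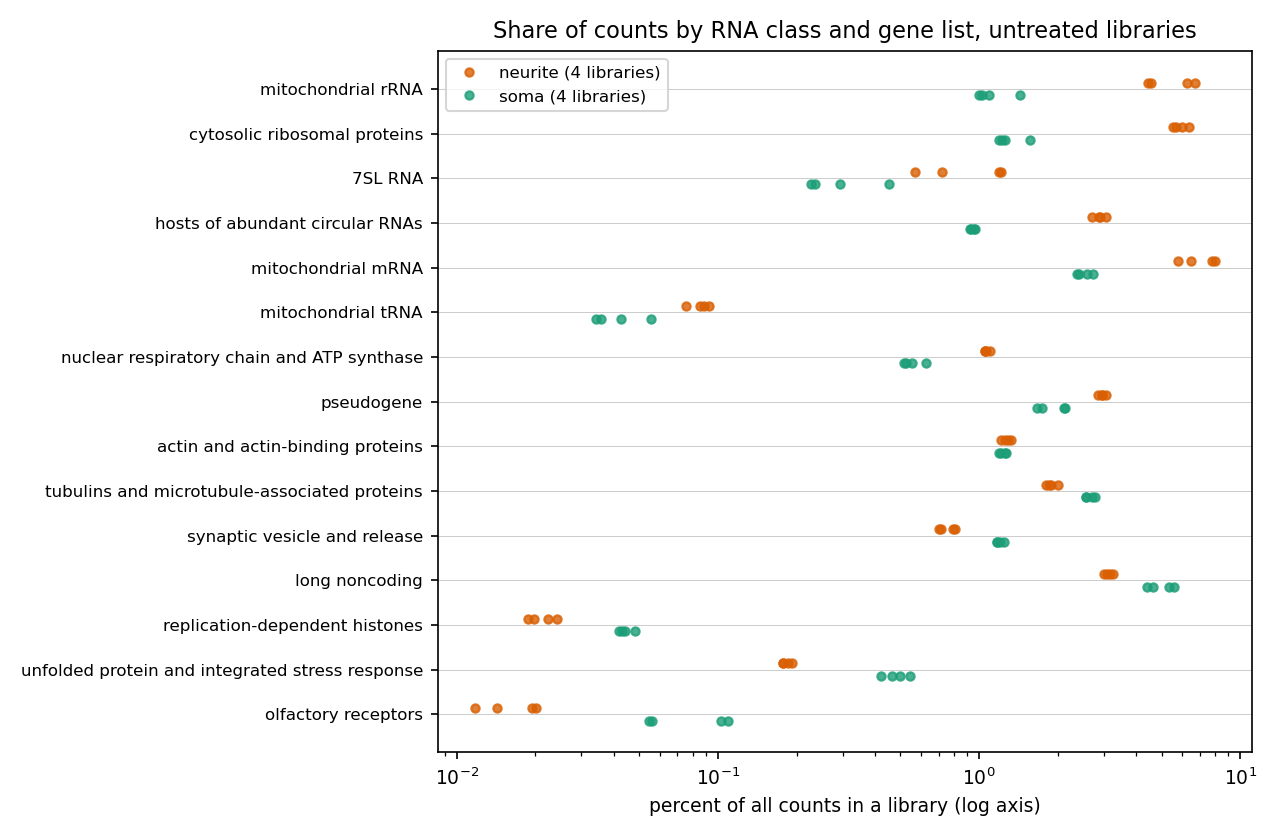
Percent of all counts (x axis, log) taken by RNA classes and gene lists in each neurite library (orange, upper points) and each soma library (green, lower points). Only the actin row overlaps between the fractions, with means of 1.27% in neurites and 1.2% in soma.

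Fewer genes were detected in neurites. With every library thinned to 2541662 counts, 13526, 13826, 15296 and 14915 genes had at least 5 counts in neurites, against 22036, 27049, 21756 and 25939 in soma (exact permutation p = 0.0286, 2-sided, the smallest possible). Coding and noncoding genes both had a gap. On average 11602 ± 519 coding genes were detected in neurites and 15351 ± 766 in soma (SD, n = 4 each), while long noncoding genes numbered 1296 ± 196 in neurites and 4839 ± 966 in soma. Soma samples 5 and 7, which detected the most genes, also had the highest olfactory receptor levels (1.2 and 1.1 CPM per kb), and the part of that signal in the detection gap was not tested.

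The same contrast in cells with a non-targeting guide differed for many genes. In a fit of the 30 untreated and non-targeting libraries, 10880 of 29425 genes (37%) had another ratio in untreated cells than in the hnRNPA1 experiment's, 3833 a higher one and 7047 a lower one (edgeR's quasi-likelihood test, adjusted p under 0.05). Against the TDP43 experiment's non-targeting cells 11037 genes differed (37.5%), 3949 with a higher and 7088 with a lower ratio. With DESeq2's size factors the splits were 4581 to 4500 and 4589 to 5340. Both comparisons use the same untreated libraries. The all-gene median ratio in this fit was −0.65 in untreated cells, −0.08 in the hnRNPA1 experiment and −0.02 in the TDP43 experiment. The olfactory receptor level was 0.037 to 0.118 CPM per kb in every non-targeting library, below all untreated ones. The guide, the kit and the experiment all differ between these cells and cannot be told apart.

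Ribosomal protein genes had a median log2 ratio of 3.19 in untreated cells, 1.1 in the hnRNPA1 experiment's non-targeting cells and 1.49 in the TDP43 experiment's, and 77 of 79 had a higher ratio in untreated cells in each comparison. Circular RNA hosts had medians of 2.34, 0.66 and 0.71, and 41 of 45 were higher in untreated cells in each. Mitochondrially encoded genes were closer (2.43, 1.94 and 1.71; 7 and 13 of 13 higher). For AKAP12 the ratio was 4.59 in untreated cells, 3.23 and 2.50 in the other experiments, a difference of 1.36 ± 0.13 and 2.09 ± 0.13. For MAP2 the difference did not pass the test (ratios 0.52, 0.49 and 0.38; differences 0.02 ± 0.10 and 0.14 ± 0.10, adjusted p = 0.89 and 0.3 in edgeR's quasi-likelihood test).

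Immediate early and axon injury genes had opposite signs. Their median was −1.03 in untreated cells and 1.02 and 0.89 in the hnRNPA1 and TDP43 experiments' non-targeting cells, with 19 and 18 of 23 lower in untreated cells and none higher. FOS had a log2 ratio of −0.95 in untreated cells, 2.85 in the hnRNPA1 experiment and 3.27 in the TDP43 experiment, differences of −3.80 ± 0.43 and −4.22 ± 0.44. FOSL2 followed it (−1.58, 1.02 and 1.31). Stress response genes had medians of −0.91, −0.02 and −0.08, with 34 and 28 of 42 lower in untreated cells. TARDBP had ratios of −0.64, 0.27 and 0.02, beside all-gene medians of −0.65, −0.08 and −0.02. Cholesterol synthesis genes ran the other way, at −0.22, −0.53 and −0.81, with 9 and 15 of 24 higher in untreated cells and 1 lower in each comparison.

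**Figure D5:**
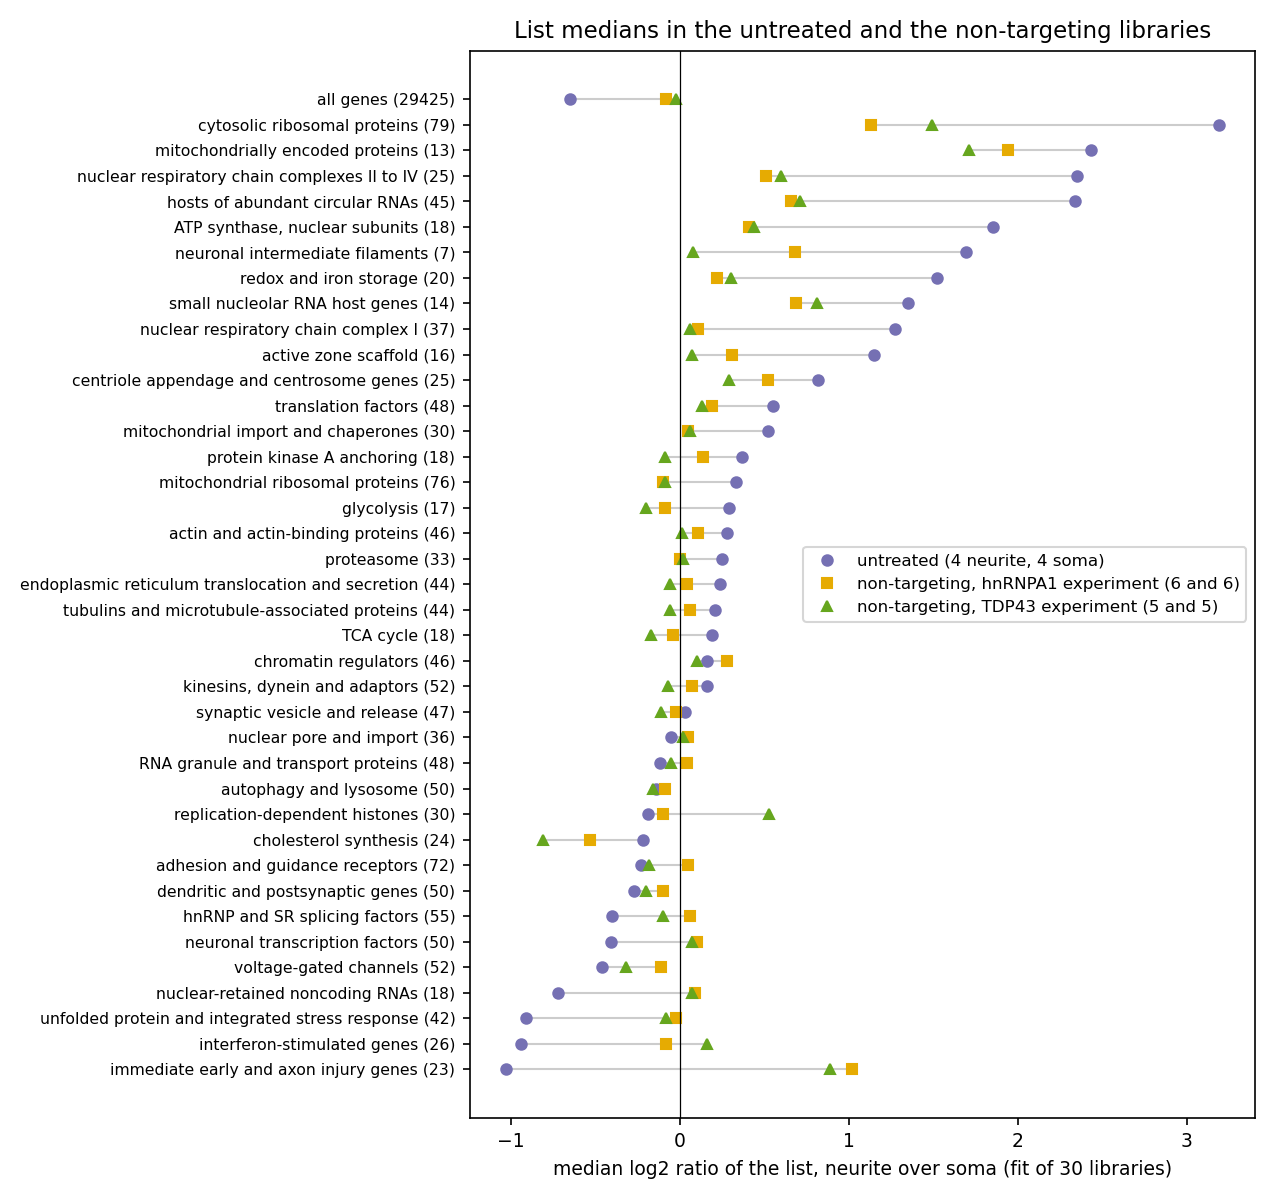
Median log2 ratio of neurites over soma for each list (x axis) in untreated libraries (circles), in the non-targeting libraries of the hnRNPA1 experiment (squares) and in those of the TDP43 experiment (triangles), all from the fit of 30 libraries. Ribosomal protein genes stand at 3.19 in untreated cells against 1.1 and 1.49. Immediate early and axon injury genes stand at −1.03 against 1.02 and 0.89.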

How the data were processed

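The authors deposited 1 table of estimated counts per gene for all libraries of the series. Per the submitters' processing notes, reads were handled with STAR 2.7.11b and featureCounts of Subread 2.0.6 on genome build hg38. The sources used here do not give the annotation release, the strand setting or the treatment of reads that fit several genes. Of the values above 0 in the 8 untreated libraries 85% were whole numbers (within 0.005), and all were rounded for the tests. Gene classes and positions come from GENCODE 29 for 58228 of 63241 identifiers. No column of the table was outside the series.

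The 8 libraries were fitted alone with edgeR 4.0.16 (R 4.3.3), using TMM scaling, its filter on low counts (18556 genes kept) and a robust quasi-likelihood test of fraction. The Benjamini-Hochberg adjustment ran over all genes tested, with a threshold of 0.05, and each standard error is the log2 ratio divided by the root of the test's F. CPM are per 1000000 of the TMM-scaled library size. Single values were tested by exact permutation of the 8 libraries. Depth ran from 2541925 to 10519656 counts, and was lowest in neurites. The test was run on simulated counts with known changes first. The difference between experiments was fitted on 30 libraries with a term for each group. Alternatives were library sizes and DESeq2 1.42.0 size factors, DESeq2's Wald test, limma 3.58.1 with voom, other filters, coding genes alone, the sample number as a block and leaving out each library. Settings that use the olfactory receptor level were chosen after seeing the data.

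Named genes are the 12 highest and 12 lowest called coding genes with a mean of at least 10 CPM and groups that do not overlap, and the 10 most abundant coding genes of each fraction. To these come the 3 highest and 3 lowest called members of each list with a mean of at least 5 CPM, the 4 highest and 4 lowest called RNAs of each noncoding class, and fixed neuronal and control genes. Others are said to be picked after their values were seen, or are the lone exceptions of a count. Members and lists were chosen with earlier results of these data known. Exon bases shared between genes of 1 strand were counted in GENCODE 29. Figures were drawn with matplotlib 3.10.9. Some items are counted in their lists and not reported here by name.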

Additional observations from a re-analysis of the deposited data

Results flagged for a closer look

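In 6 of 96 groups of 4 libraries tested with Dixon's critical value, 1 library lay far from the other 3, and chance gives about 1 in 20. In neurites these were AKAP6 in sample 7 (6463 CPM) and the share of the nuclear-encoded respiratory chain and ATP synthase in sample 7 (1.1% of counts). In soma they were RPL12 in sample 7 (98.6 CPM), COX6A1 in sample 7 (33.3 CPM), RNU4-2 in sample 7 (69 CPM) and SV2A in sample 6 (183 CPM). Soma sample 7 is also the shallowest soma library, at 5212152 counts, and the part of depth in these values was not tested.

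The ratio of neurites over soma differed between untreated and non-targeting cells for 10880 genes against the hnRNPA1 experiment and for 11037 against the TDP43 experiment, by a test of the difference itself. Differences below are untreated minus non-targeting, in log2 units, first against the hnRNPA1 and then against the TDP43 experiment. They were looked at for 15 named genes, 30 differences in all. Over all genes the median differences were −0.41 and −0.48. Untreated ratios were higher for AKAP12 (1.36, 2.09), MAN1A2 (2.15, 2.36), RPL12 (2.05, 1.89), AKAP6 (2.81, 3.19), BCYRN1 (2.08, 1.88), NEFL (1.49, 1.54) and MT-ND4 (0.59, 0.83). They were lower for SCN1A (−0.73, −0.77), LENG8 (−1.42, −1.10), VEGFA (−1.47, −1.40), TARDBP (−0.91, −0.66), FOS (−3.80, −4.22) and FOSL2 (−2.60, −2.89). For RN7SL1 the difference passed against the TDP43 experiment, at −1.84. Untreated and non-targeting libraries also differ in kit version, and both cannot be told apart.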

How the results depend on the processing

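Of the 112 genes with values shown, alternatives other than leaving out a library gave the same direction and call in 1065 cases, lost the call in 13, gained one in 8 and turned the direction in 8; leaving out a library lost the call in 11 and gained one in 5. Directions turned with library sizes, to −0.83 for INA, −0.42 for MAP1B, −0.47 for MAP2, −0.81 for MAPT, −0.50 for GAP43, −0.72 for NDUFS1, −0.80 for ATF4 and −0.80 for NORAD. The difference of MT-ND4 against the hnRNPA1 experiment turned to −0.02. With library sizes 16941 genes were called in untreated cells, since the scaling alone moves all ratios down. For other settings the cause was not tested. Without 1 library 8705 to 10416 genes were called, 9672 to 10967 for the difference from the hnRNPA1 experiment and 10091 to 11173 for that from the TDP43 experiment, which came to 7303 in the smaller set with a mean of at least 5 CPM. The gap in detected genes ranged from −10617 to −8853, shares past the threshold from 14 to 15, and lists above the all-gene median from 32 to 34. That number was 26 at 5 times the olfactory receptor level or more, 28 at a mean of at least 5 CPM, 29 with the receptor level taken off and 36 with no filter, and these 4 settings moved 36, 30, 36 and 41 of 44 list medians relative to all genes without turning them. List medians relative to all genes changed sign at 5 times the olfactory receptor level or more for neuronal transcription factors (−0.35), postsynaptic genes (−0.12), adhesion (−0.04), cholesterol synthesis (−0.04) and lysosome genes (−0.00). They did so at a mean of at least 5 CPM for neuronal transcription factors (−0.17), postsynaptic genes (−0.05) and cholesterol synthesis (−0.01). With the receptor level taken off the sign changed for neuronal transcription factors (−0.20) and postsynaptic genes (−0.01). With no filter it changed for immediate early and axon injury genes (0.02). Same-numbered neurite and soma samples did not deviate together (r = 0.155, −0.00685, −0.0362 and 0.135 for samples 4 to 7), and not every sample correlated best with its own number. With the replicate block 10904 genes were called, and 10636 and 10741 for the differences from the hnRNPA1 and TDP43 experiments. A paired exact test of 4 pairs cannot go below p = 0.125, so under that pairing 0 shares passed and the gap in detected genes (−9804) had no call. Precision for low genes is limited by neurite depth, with at most 4346122 counts in a library.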
